A study of Rattus norvegicus with 6 samples.

Results

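The secreted Wnt ligands, their Frizzled receptors and the secreted proteins that tune them were followed in lung RNA from rats with monocrotaline-induced pulmonary hypertension. Members were the genes whose symbol in the deposited table begins with Wnt, Fzd, Sfrp, Dkk or Rspo and a number, or is Lgr4, Lgr5 or Lgr6. The rule found 43 genes of 23802 in the table: 19 Wnt ligands, 9 Frizzleds, 4 secreted Frizzled-related proteins (Sfrp), 4 Dickkopf proteins (Dkk), 4 R-spondins and 3 Lgr receptors. PolyA RNA of whole lung came from male wild-type Sprague-Dawley rats of 200 to 250 g at the start, 3 samples from saline controls and 3 from rats given 1 dose of 60 mg/kg monocrotaline (MCT), a plant alkaloid that injures the lung vessels, 4 weeks before. The labels give the MCT route as intraperitoneal in the protocol and as subcutaneous in the sample characteristics, and the saline route as subcutaneous. Whole lung mixes all cell types, so fewer cells of a type and less RNA per cell cannot be told apart in any value below.

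Wnt proteins are lipid-modified ligands that bind a Frizzled receptor, either with the co-receptors Lrp5 and Lrp6, which leads to stabilization of beta-catenin, or with co-receptors such as Ror2, which act on cell polarity and movement without beta-catenin. Sfrp proteins bind Wnts outside the cell, classical Dkk proteins block the Lrp co-receptors, and R-spondins, through Lgr4 to Lgr6, keep Frizzleds on the cell surface. In the lung these signals pattern the airways and vessels during development and maintain alveolar stem cells in the adult.

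Library totals ranged from 13525912 to 17916134 estimated counts. The markers of alveolar type 2 cells, the surfactant producers that define lung tissue, summed to 26041 to 28029 CPM (counts scaled to a common library size with TMM factors) in controls and to 14792, 20818 and 24461 CPM in MCT replicates 1 to 3. Of its 9 tested markers 3 fell and 6 did not pass, and no marker was at 0 in all samples. The part of this difference in the values below was not tested. Of the 43 members, 30 passed the filter on low counts and were tested. A member was called higher or lower at a Benjamini-Hochberg adjusted p under 0.05 in edgeR's quasi-likelihood test over all 15250 tested genes, and adjusted p-values below come from that test unless another is named.

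The MCT lungs held less RNA of 2 ligands, 2 receptors and 1 R-spondin and more of 1 ligand and 1 Dickkopf protein. Wnt2b, Wnt5b, Fzd4, Fzd8 and Rspo1 fell by 1.08 to 2.29 on the log2 scale, and Wnt9b and Dkk3 rose, by 2.78 and 0.83. These 7 were 23.3% of the 30 tested members, beside 13.1% of all tested genes called in either direction. The 5 lower members were 16.7%, beside 5.11% of all tested genes, and the 2 higher ones 6.67%, beside 8.01%. Counts of called genes in the marker lists and further pathway lists stand beside the same 5.11% lower and 8.01% higher. The median log2 fold change was -0.04 over the tested members and -0.01 over all tested genes, and 11 of the 30 members (36.7%) had groups that did not overlap, beside 35.4% of all tested genes.

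**Figure D1:**
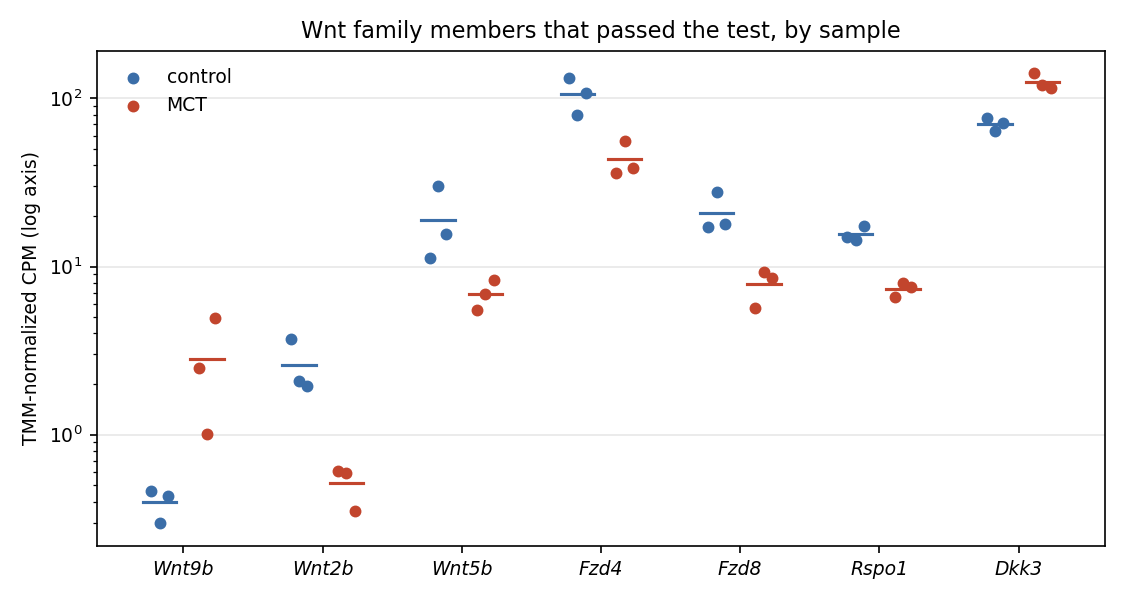
Level of each called member in each sample, in TMM-normalized CPM on a log axis, with 3 control and 3 MCT points per gene and a bar at each group mean. In all 7 genes the groups do not overlap; Wnt9b and Wnt2b lie at the bottom of the axis, and Wnt9b spreads from 1.01 to 4.97 CPM among MCT lungs.

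The promoters of 3 called members are shown, 2 that fell and 1 that rose, to set side by side the bases before the genes that moved in opposite directions. They are the 250 bases before the annotated start in RefSeq (build GRCr8, not the build of the counts), which held entries for 29 of the 43 members. Capitals mark the GC box GGGCGG and the E-box CACGTG on either strand, and the pair of overlapping GC boxes in Fzd4 runs on as 1 stretch.
Fzd4, chr1:152692257-152692506, plus strand: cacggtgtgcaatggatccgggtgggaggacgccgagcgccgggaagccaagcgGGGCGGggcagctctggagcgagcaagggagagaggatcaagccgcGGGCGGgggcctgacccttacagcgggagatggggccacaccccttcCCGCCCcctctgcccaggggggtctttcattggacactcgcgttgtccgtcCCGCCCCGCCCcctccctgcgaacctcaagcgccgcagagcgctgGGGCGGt
Wnt2b, chr2:195156946-195157195, minus strand: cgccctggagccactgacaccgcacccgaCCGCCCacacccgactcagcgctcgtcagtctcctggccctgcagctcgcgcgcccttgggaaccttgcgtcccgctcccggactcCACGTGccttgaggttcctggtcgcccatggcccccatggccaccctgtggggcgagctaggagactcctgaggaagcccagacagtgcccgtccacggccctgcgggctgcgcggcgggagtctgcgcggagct
Wnt9b, chr10:89157066-89157315, minus strand: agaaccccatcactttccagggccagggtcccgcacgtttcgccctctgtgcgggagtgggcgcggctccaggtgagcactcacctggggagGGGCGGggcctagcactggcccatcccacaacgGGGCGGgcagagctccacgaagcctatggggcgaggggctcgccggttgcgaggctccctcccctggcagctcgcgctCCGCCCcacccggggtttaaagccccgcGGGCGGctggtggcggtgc
The window held 6 GC boxes in Fzd4, 4 in Wnt9b and 1 in Wnt2b, which also had 1 E-box. Of the 29 member promoters, 14 had GGGCGG on either strand, a larger share than the 30.5% of all 33469 promoters of that length. The member windows also had a higher median GC content, 64.8% against 51.2% over all. CTTTGAA, a form of the site bound by the TCF and LEF factors of the beta-catenin branch, stood in 2 of the 29 (Dkk1 and Wnt8a) and in 4.68% of all promoters, and the form CTTTGAT in 0 of the 29 and in 3.15% of all. The Fzd8 and Rspo1 windows held none of the motifs searched, which also included TATAAA.

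Among the ligands, level per transcript length was led by Wnt3a, Wnt4 and Wnt7a in both groups. In control lungs Wnt3a stood at 16.1 ± 0.903 FPKM (fragments scaled by transcript length and library size, SD, n = 3), Wnt4 at 14.2 ± 2.36 and Wnt7a at 11.3 ± 2.42. The control ranges of Wnt3a and Wnt4 overlapped, as did those of Wnt4 and Wnt7a. Within each control library Wnt4 lay above Wnt7a, while Wnt3a lay above Wnt4 only in control replicate 1. Wnt5b, Wnt11 and Wnt5a followed at 8.96 ± 4.62, 7.91 ± 2.13 and 5.39 ± 1.13 FPKM in controls, while in MCT lungs Wnt5a, at 6.77 ± 0.307 FPKM, lay above Wnt11 at 4.63 ± 1.24 and Wnt5b at 3.23 ± 0.64. The FPKM of Wnt4 and Wnt7b rest on a gene length that differed between libraries, since their CPM per FPKM varied 1.36-fold and 1.89-fold over the samples.

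**Figure D2:**
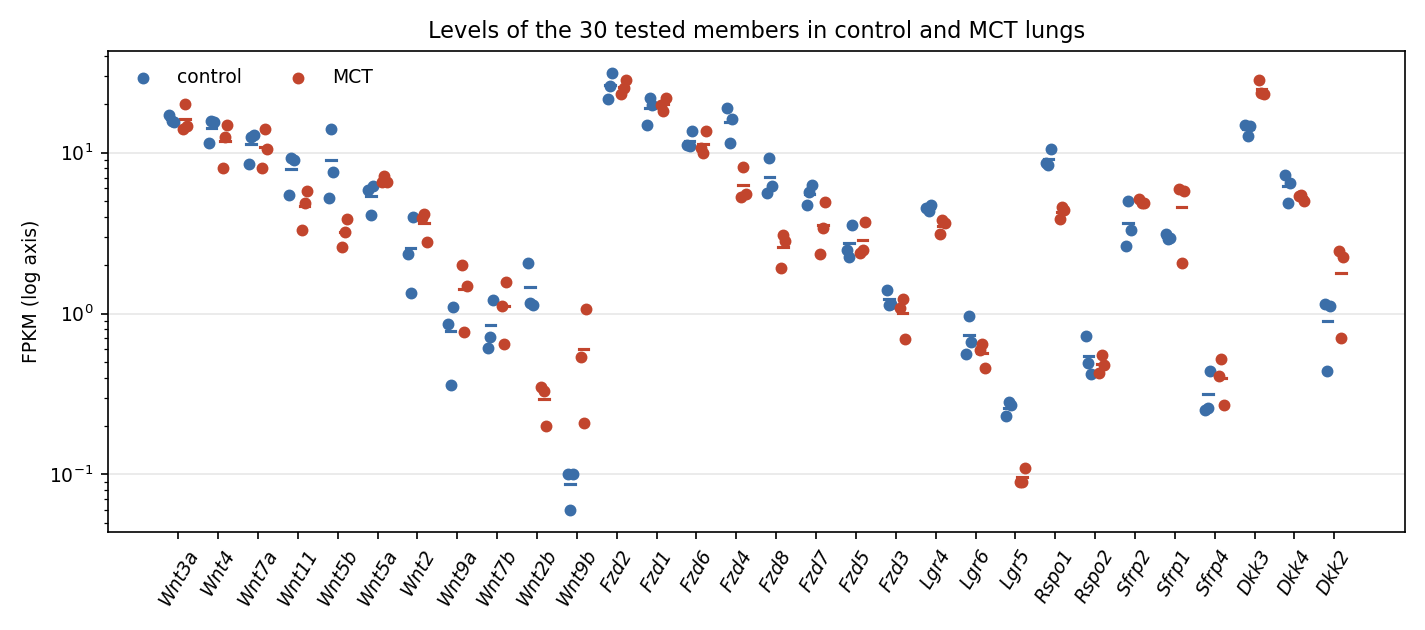
FPKM of the 30 tested members on a log axis, ordered within each role by mean level, with 3 control and 3 MCT points per gene and a bar at each group mean. Wnt3a leads the ligands and Fzd2 the receptors; most members overlap between groups, while Wnt2b, Wnt5b, Fzd4, Fzd8 and Rspo1 lie lower in MCT lungs.

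The most abundant ligands did not pass the test. Wnt3a, a ligand of the beta-catenin branch, was at 46.0, 41.7 and 39.2 CPM in controls and 36.6, 53.7 and 38.9 in MCT lungs (log2 fold change 0.03, SE 0.17, adjusted p = 0.936). Wnt7a, a ligand with roles in epithelium and vessels, was at 27.3, 39.5 and 39.2 CPM in controls and 25.1, 44.9 and 33.5 in MCT lungs (log2 fold change -0.03, SE 0.23). In both genes the 3 MCT values spanned the control range, with MCT replicate 2 the highest of the 6 libraries. Wnt4 was at 40.1, 42.5 and 39.5 CPM in controls and at 25.2, 35.7 and 39.5 in MCT lungs (log2 fold change -0.28, SE 0.17, adjusted p = 0.310). Its highest MCT value lay just below its lowest control value.

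Wnt2b, a ligand of the beta-catenin branch, fell the most, 4.9-fold. It was at 3.73, 2.09 and 1.94 CPM in controls and 0.61, 0.593 and 0.35 CPM in MCT lungs (log2 fold change -2.29, SE 0.43, adjusted p = 0.0128). Every MCT value lay below every control value, on 28 to 56 counts per control library and 5 to 10 per MCT library. The call ended without MCT replicate 3 (log2 fold change -2.08, adjusted p = 0.0501). Its relative Wnt2, a ligand of lung development, was at 3.19, 1.79 and 5.12 CPM in controls and 5.22, 5.63 and 3.71 in MCT lungs. The log2 fold change of Wnt2 was 0.52 (SE 0.39, adjusted p = 0.413), and its groups overlapped.

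Wnt5b fell 2.76-fold. Its levels were 11.2, 30.2 and 15.5 CPM in controls and 5.49, 6.88 and 8.27 CPM in MCT lungs (log2 fold change -1.46, SE 0.36, adjusted p = 0.0314), with control replicate 2 far above the other two. Dropping that control left -0.96 (adjusted p = 0.0785). Dropping control replicate 3, or any MCT lung, left -1.61 to -1.32 and missed the threshold as well (adjusted p = 0.0565 to 0.0927). Wnt5a, its close relative and the best-known ligand of the branch that acts without beta-catenin, was at 30.1, 20.6 and 29.8 CPM in controls and 32.6, 36.0 and 33.1 in MCT lungs (log2 fold change 0.34, SE 0.17, adjusted p = 0.212). All 3 MCT lungs were above all controls in Wnt5a, which still missed the threshold. Wnt11, another ligand of that branch, was at 14.4, 24.1 and 22.4 CPM in controls and 8.48, 12.6 and 14.9 in MCT lungs (log2 fold change -0.76, SE 0.26, adjusted p = 0.0941, and adjusted p = 0.0417 with DESeq2), with control replicate 1 inside the MCT range.

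Wnt9b, a ligand known from kidney and face development, rose 6.88-fold from a very low level. It was at 0.466, 0.298 and 0.431 CPM in controls and 2.51, 1.01 and 4.97 CPM in MCT lungs (log2 fold change 2.78, SE 0.62, adjusted p = 0.0231), on 4 to 8 counts per control library and 17 to 71 per MCT library. Each MCT lung exceeded each control, but the highest and lowest MCT lungs differed widely. Dropping any control left 2.63 to 2.90 and missed the threshold (adjusted p = 0.0593 to 0.0891). Dropping MCT replicate 3 left 2.11 (adjusted p = 0.0692). Wnt9a was at 0.532, 0.223 and 0.647 CPM in controls and 1.22, 0.474 and 0.91 in MCT lungs (log2 fold change 0.84, SE 0.54, adjusted p = 0.339), with overlapping groups. Wnt7b, an epithelial ligand of lung development, had a log2 fold change of 0.26 (SE 0.35, adjusted p = 0.657).

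Close relatives were also set against each other within each library, as the log2 ratio of their CPM with 0.1 added, over 5 pairs. Wnt2b relative to Wnt2 was lower by 2.70 in MCT lungs, Wnt5b relative to Wnt5a by 1.71 and Fzd8 relative to Fzd5 by 1.46, and Wnt9b relative to Wnt9a was higher by 1.54. In these 4 pairs the groups did not overlap (two-sided exact permutation p = 0.1 each, the smallest that 3 against 3 allows, and 0.125 adjusted over the 5 pairs). Each of these 4 pairs holds a called member, so the ratios reuse values already tested and are not separate evidence. The ratio of Wnt7b to Wnt7a overlapped between groups (exact permutation p = 0.8).

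Fzd2 and Fzd1, receptors for many Wnts, were the most abundant Frizzleds per length in control lungs, at 26.4 ± 4.92 and 18.8 ± 3.69 FPKM (SD, n = 3), followed by Fzd4 at 15.6 ± 3.73 and Fzd6 at 11.9 ± 1.45. The control ranges of Fzd2 and Fzd1 overlapped, as did those of Fzd1 and Fzd4 and of Fzd4 and Fzd6. Within each control library Fzd2 lay above Fzd1 and Fzd4 above Fzd6, while Fzd1 lay below Fzd4 in control replicate 1. Fzd8, at 7.01 ± 1.94 FPKM in controls, shares its signal with another locus of the same counts. Its place in this order is therefore not settled. In MCT lungs Fzd6, at 11.4 ± 1.97 FPKM, lay above Fzd4, at 6.32 ± 1.54, with no overlap. Fzd4 is the receptor of norrin and is needed for retinal and other vessels.

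Fzd4 fell 2.45-fold. Its levels were 132, 79.5 and 108 CPM in controls and 36.0, 56.1 and 38.3 CPM in MCT lungs (log2 fold change -1.29, SE 0.23, adjusted p = 0.00979), so the highest MCT lung, replicate 2, stayed below the lowest control. As a share of the summed Frizzled FPKM it was 17.7% ± 5.28 in controls and 8.66% ± 2.31 in MCT lungs (SD, n = 3, exact permutation p = 0.1, the smallest possible). This share reuses the Fzd4 values already tested and is not separate evidence. Endothelial markers moved the same way: 5 of 10 tested members of that list fell, and their summed level was 3939 to 4496 CPM in controls and 1821, 3321 and 2250 CPM in MCT replicates 1 to 3. MCT replicate 2 was the highest MCT lung in both Fzd4 and that sum, and no marker of the list was at 0 in all samples. It was also the highest MCT lung in the summed markers of alveolar type 1 cells (3635, 6793 and 4503 CPM in MCT lungs, 5879 to 7498 in controls, 3 of 10 lower) and of alveolar fibroblasts (1077, 1311 and 1053 CPM, 1307 to 1417 in controls, 5 of 9 lower and 1 higher). Lymphatic endothelial markers went the other way, with 5 of 7 higher, 1 lower and sums of 584 to 810 CPM in controls and 1209 to 1522 in MCT lungs. Calcrl, an adrenomedullin receptor subunit, fell by 2.11 while Cldn5, a tight junction gene, had -0.37 (adjusted p = 0.306). The part of these markers in the Fzd4 value was not tested.

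Fzd8 fell 2.65-fold: the controls had 17.2, 27.7 and 17.8 CPM and the MCT lungs 5.70, 9.31 and 8.55 (log2 fold change -1.41, SE 0.26, adjusted p = 0.0117), with no overlap. A frizzled-8-like locus (LOC100909849) holds the same count in every library, some of them fractions such as 372.5 in control replicate 2, so these levels are those of 1 copy of a shared signal. With the copies summed the log2 fold change was -1.41 (adjusted p = 0.00973). Fzd7 was at 13.71, 16.09 and 17.04 CPM in controls and 6.58, 9.78 and 14.0 in MCT lungs (log2 fold change -0.63, SE 0.26, adjusted p = 0.152), with MCT replicate 3 inside the control range.

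The other 5 tested Frizzleds overlapped between groups and did not pass. Fzd1 was at 66.2, 97.2 and 84.1 CPM in controls and 86.9, 81.0 and 96.5 in MCT lungs, and Fzd2 at 42.1, 50.2 and 58.0 against 43.9, 49.2 and 54.2. Fzd6, a receptor of the cell polarity branch, was at 47.9, 46.3 and 55.1 CPM in controls and 44.7, 42.1 and 57.4 in MCT lungs. Fzd5 was at 5.46, 4.84 and 7.33 against 5.09, 5.39 and 8.06 CPM, and Fzd3 at 3.93, 3.13 and 3.02 against 2.98, 3.44 and 1.89 CPM. Their log2 fold changes ran from -0.27 for Fzd3 to 0.10 for Fzd1. Summed Frizzled FPKM was 89.2 ± 8.7 in controls and 73.5 ± 7.52 in MCT lungs (SD, n = 3, exact permutation p = 0.2). The share of Fzd2 in it was 29.4% ± 2.64 and 34.8% ± 0.452 (exact permutation p = 0.1). The sum, and the shares of Fzd4 and Fzd2 in it, leave out the frizzled-8-like locus that shares the Fzd8 signal. A sum with that locus added was not tested.

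**Figure D3:**
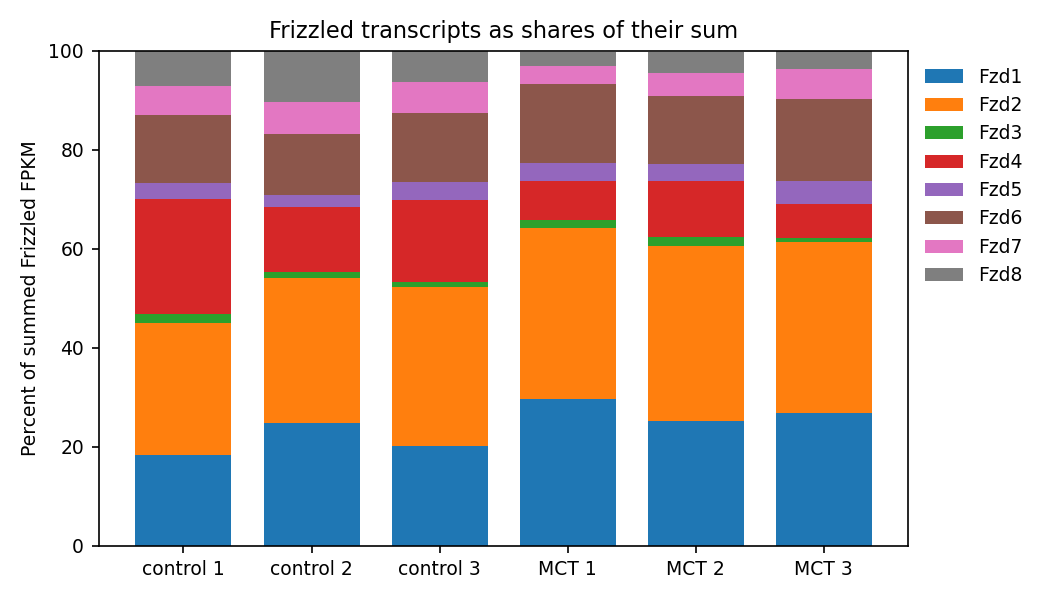
Each Frizzled with a mean of at least 1 FPKM as a percentage of the summed Frizzled FPKM of its library, 1 bar per sample; the bars stop just short of 100 because Fzd9 is not drawn, and Fzd8 is 1 of a pair of loci with the same counts. Fzd4 takes 13.0% to 23.4% in controls and 6.82% to 11.3% in MCT lungs, and Fzd1 and Fzd2 take larger shares in every MCT lung than in any control. The sum holds the called Fzd4 and Fzd8, while Fzd1 and Fzd2 themselves did not pass the test.

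Rspo1, an R-spondin that amplifies beta-catenin signalling, was at 14.9, 14.4 and 17.3 CPM in controls and 6.58, 7.94 and 7.57 CPM in MCT lungs. All MCT values were under all control values, and the spread within groups was small (log2 fold change -1.08, SE 0.17, adjusted p = 0.0073). Mesothelial markers moved the same way: 6 of 8 tested genes of that list fell, its summed level was 508 to 566 CPM in controls and 325 to 359 CPM in MCT lungs, and no marker was at 0 in all samples. Msln, the gene of mesothelin, fell by 2.11, while the more abundant Krt19, a keratin that airway cells also make, had -0.19 (adjusted p = 0.346). Lists of other cells also held lower genes: 5 of 10 for endothelium, 5 of 9 for alveolar fibroblasts (1 higher) and 4 of 9 for T and NK cells. Lymphatic endothelial markers went the other way, with 5 of 7 higher and 1 lower. The part of these lists in the Rspo1 and Wnt2b values was not tested. Rspo2, which limb and lung formation need, had a log2 fold change of -0.12 (SE 0.37, adjusted p = 0.856), and Rspo3 was too low to test, with 15, 4 and 10 counts in controls and 5, 0 and 2 in MCT lungs.

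None of the 3 receptors of R-spondins passed the test (Lgr5 had an unadjusted p = 0.0108, the lowest of them). Lgr4, the most abundant of them, was at 16.1, 15.2 and 15.9 CPM in controls and 10.78, 13.51 and 12.82 in MCT lungs (log2 fold change -0.35, SE 0.16, adjusted p = 0.179). Lgr5, a stem cell marker and target of beta-catenin, was at 0.732, 0.894 and 0.809 CPM in controls and 0.271, 0.296 and 0.35 in MCT lungs (log2 fold change -1.38, SE 0.43, adjusted p = 0.0667). The groups of Lgr4 and of Lgr5 did not overlap, with the MCT lungs lower, but Lgr5 rests on 4 to 15 counts per library. Lgr6, a receptor also found on smooth muscle, had a log2 fold change of -0.36 (SE 0.35, adjusted p = 0.527), and its groups overlapped.

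Dkk3, a Dickkopf relative that does not act on the Lrp co-receptors in the classical way, rose 1.78-fold. Its levels were 76.4, 64.0 and 71.0 CPM in controls and 141, 119 and 116 CPM in MCT lungs (log2 fold change 0.83, SE 0.13, adjusted p = 0.00558), with a clear gap between the groups. Dkk2 was at 4.13, 1.56 and 3.77 CPM in controls and 8.54, 2.49 and 7.99 in MCT lungs (log2 fold change 0.99, SE 0.51, adjusted p = 0.229), and MCT replicate 2 lay within the control range. Dkk4, an inhibitor of the Lrp co-receptors, was at 11.05, 7.299 and 9.274 CPM in controls and 8.002, 8.298 and 7.495 in MCT lungs (log2 fold change -0.22, SE 0.21, adjusted p = 0.533). Markers of smooth muscle summed to 1150 to 1411 CPM in controls and to 1963, 1431 and 1891 CPM in MCT replicates 1 to 3, with 3 of 10 tested members higher and no marker at 0 in all samples. Tagln, an actin-binding protein gene, had 0.59 (adjusted p = 0.0541) and Mylk, the myosin light chain kinase gene, -0.16. Smooth muscle was not the only list to rise. Pericyte markers summed to 930 to 1055 CPM in controls and 1485, 1477 and 1301 in MCT replicates 1 to 3, with 1 of 10 higher. Mast cell markers had 7 of 8 higher and 1 lower. Macrophage markers had 6 of 9 higher, but their sums overlapped between groups. The endothelial sums, given above, were lower. The part of these lists in the Dkk values was not tested.

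The 3 tested Sfrp genes did not pass (Sfrp2 had an unadjusted p = 0.0989, the lowest of them). Sfrp1, a Wnt-binding inhibitor made by stromal cells, was at 12.3, 11.4 and 11.0 CPM in controls and at 22.9, 8.18 and 22.5 in MCT lungs (log2 fold change 0.62, SE 0.35, adjusted p = 0.265). MCT replicates 1 and 3 stood far above the controls and MCT replicate 2 below them, and without MCT replicate 2 Sfrp1 was called higher (0.97, adjusted p = 0.00793). Sfrp2, a related protein, was at 6.25, 11.8 and 7.49 CPM in controls and 12.003, 11.558 and 11.488 in MCT lungs (log2 fold change 0.46, SE 0.25, adjusted p = 0.253), with control replicate 2 inside the MCT range. Sfrp4 had a log2 fold change of 0.34 (SE 0.42, adjusted p = 0.626).

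**Figure D4:**
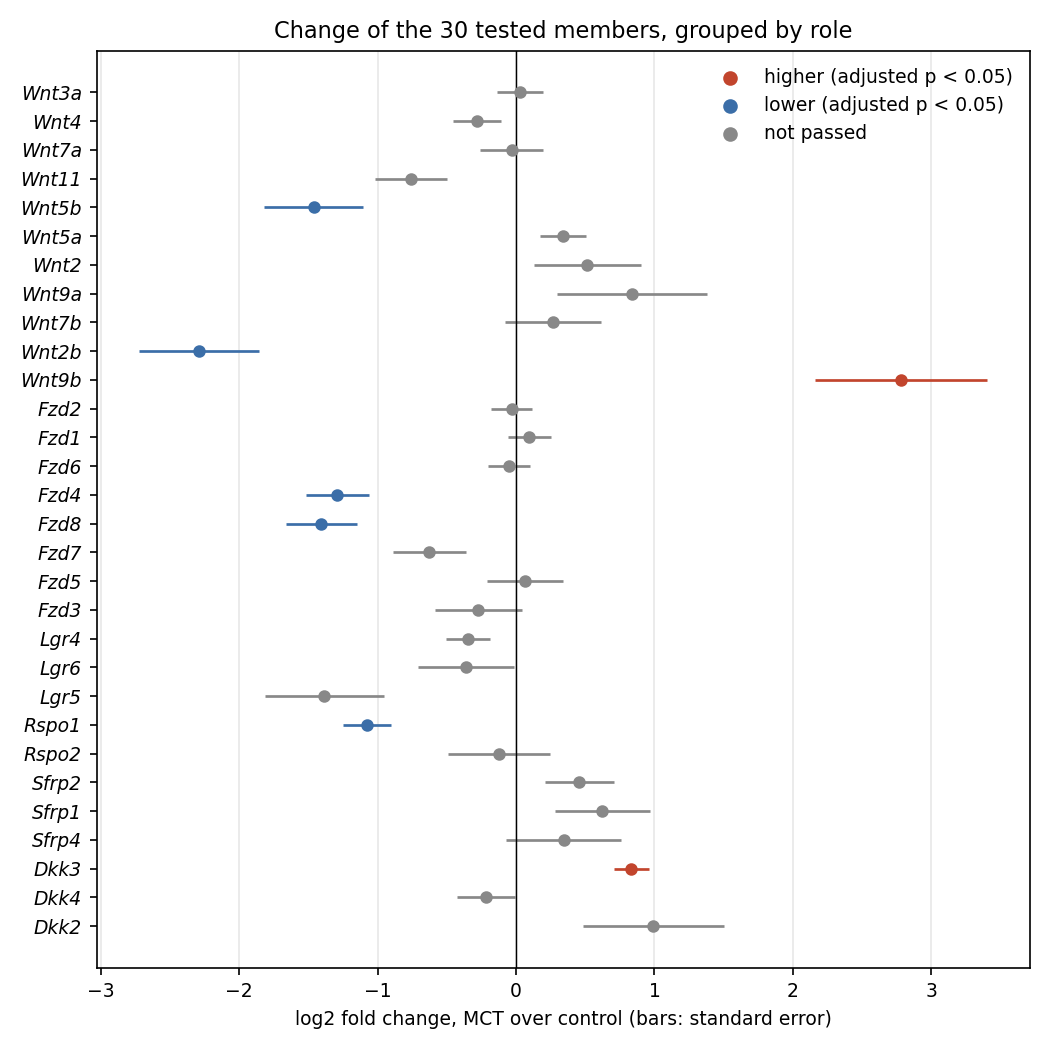
Log2 fold change of each tested member, MCT over control, with its standard error as a horizontal bar, grouped by role and ordered by level within a role. Red and blue points passed the edgeR test; the 5 lower members lie between -2.29 and -1.08, Wnt9b lies at 2.78, and the grey members between -1.38 and 0.99.

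The 13 untested members had few or no counts in these libraries. Wnt1, Wnt8a, Wnt8b and Wnt10a had no count in any sample, which allows 0.167 to 0.222 CPM per library at a floor of 3 counts. The other 9, namely Wnt3, Wnt6, Wnt10b, Wnt16, Fzd9, Sfrp5, Rspo3, Rspo4 and Dkk1, had at most 15 counts in a library. Fzd9 had 2, 0 and 0 counts in controls and 7, 5 and 4 in MCT lungs, and Sfrp5 6, 12 and 7 against 2, 8 and 5.

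The rest of the pathway was read from lists of 90 further genes, of which 88 were in the table and 79 tested. Of these, 11 fell, 5 rose and 63 did not pass, so 13.9% fell and 6.33% rose, beside 5.11% and 8.01% of all tested genes. Their median log2 fold change was -0.27, and 55 of the 79 were below 0 (69.6%, against 51.3% of all tested genes). Leaving out 1 library changed these counts. Without control replicate 1 there were 6 lower and 3 higher, and without control replicate 2 or 3 there were 2 and 2. Without MCT replicate 1 there were 4 and 3, without MCT replicate 2 there were 8 and 6, and without MCT replicate 3 there were 5 and 2. The calls over all tested genes changed too: 779 lower and 1221 higher became 212 and 481 without control replicate 3. Without MCT replicate 2 they became 978 and 1394. Apcdd1, Tle1, Ccnd1 and Prickle1 kept their calls in each of the 15 alternatives run, and the other 12 lost theirs in at least 2.

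On the ligand side, 2 of 5 tested genes fell. Ndp, the gene of norrin, the ligand of Fzd4 that is not a Wnt, was at 0.865, 1.27 and 1.29 CPM in controls and 0.407, 0.474 and 0.28 in MCT lungs (log2 fold change -1.53, SE 0.43, adjusted p = 0.0491). Tpbg, a membrane inhibitor of Wnt signalling, fell by 0.58 (adjusted p = 0.0459). Ndp rests on few counts, and both calls ended without any 1 of the 6 libraries (Ndp adjusted p = 0.0681 to 0.169, Tpbg adjusted p = 0.0668 to 0.147). Ndp also missed the threshold with DESeq2 (adjusted p = 0.0934), limma-voom (adjusted p = 0.0588), no filter (adjusted p = 0.0917) and on log2(FPKM + 0.1) and log2(FPKM + 1) (adjusted p = 0.0555 and 0.0693). Tpbg did so on both FPKM scales, with limma-voom and with no filter (adjusted p = 0.0501 to 0.0534). Wls, which carries Wnts to the cell surface, had -0.12 (adjusted p = 0.693).

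Of 7 tested genes in a list of secreted or membrane inhibitors that leaves out Tpbg, 3 rose and 1 fell. Apcdd1, a membrane inhibitor that binds Wnts and Lrp co-receptors, rose from 24.4, 28.4 and 25.5 CPM to 62.0, 52.3 and 53.2 CPM (log2 fold change 1.10, SE 0.13, adjusted p = 0.00218), with a wide gap between the groups. Wif1, a secreted protein that binds Wnts, fell from 146, 142 and 147 CPM to 52.4, 102 and 50.9 CPM (log2 fold change -1.08, SE 0.25, adjusted p = 0.0269), with MCT replicate 2 nearest to the controls. Wif1 missed the threshold once any control, or either of the lower MCT lungs, was dropped (adjusted p = 0.0633 to 0.0864), at values of -1.10 to -0.90. Frzb, an Sfrp relative, was at 5.66, 3.05 and 4.80 CPM in controls and 63.0, 5.99 and 21.0 in MCT lungs (log2 fold change 2.73, SE 0.72, adjusted p = 0.0417). The 3 MCT lungs differed widely, and without MCT replicate 1 Frzb stood at 1.58 (adjusted p = 0.0986), and dropping any control, or MCT replicate 3, gave adjusted p = 0.0684 to 0.143. Frzb was also not called with limma-voom (2.11, adjusted p = 0.177) or on the FPKM scales (adjusted p = 0.0932 and 0.106). Igfbp4, an IGF-binding protein that also binds Frizzleds, rose by 1.05 (adjusted p = 0.0382). Dropping any control, or either of MCT replicates 1 and 3, ended its call (adjusted p = 0.0679 to 0.129), as did the FPKM scales (adjusted p = 0.0515 and 0.0517).

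Among 12 tested co-receptors and turnover genes, Ror2, the tyrosine kinase receptor of Wnt5a, rose from 10.9, 9.01 and 6.74 CPM to 20.8, 15.4 and 20.7 CPM (log2 fold change 1.09, SE 0.22, adjusted p = 0.0168). Lrp6 fell from 40.1, 40.1 and 38.8 CPM to 25.1, 22.2 and 29.5 CPM (log2 fold change -0.63, SE 0.14, adjusted p = 0.0214). In Lrp6 the 3 controls were nearly level and every MCT lung lay below them. Adgra2, a receptor of brain endothelium that works with Frizzleds on Wnt7 signals, fell by 0.51 (adjusted p = 0.0241), and Gpc3, a heparan sulfate proteoglycan and the most abundant of the list, had 0.28 (adjusted p = 0.287). Ror2 missed the threshold when control replicates 2 or 3, or MCT replicate 3, were dropped singly (adjusted p = 0.0553 to 0.0612). Lrp6 missed it on dropping any control, or MCT replicate 1 (adjusted p = 0.0511 to 0.0724). Adgra2 needed controls 2 and 3 and MCT lungs 1 and 3, since dropping any of these 4 gave adjusted p = 0.0526 to 0.0906.

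In the beta-catenin core 2 of 26 tested genes fell and 24 did not pass, beside 13.1% of all tested genes called and 5.11% lower. Tle1, a co-repressor of TCF factors, fell from 56.0, 46.5 and 41.0 CPM to 20.3, 23.4 and 24.7 CPM (log2 fold change -1.07, SE 0.15, adjusted p = 0.00482). Bcl9, a co-activator that binds beta-catenin, fell by 0.77 (adjusted p = 0.0215), a call that ended without any 1 of the controls (adjusted p = 0.0571 to 0.0787). Ctnnb1, the gene of beta-catenin itself, had 0.13 (SE 0.15, adjusted p = 0.597).

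Genes known as feedback targets of beta-catenin did not move one way: of 14 tested, apart from the members Lgr5 and Dkk1, 3 fell, 2 rose and 9 did not pass, and the median was -0.52. Axin2, a scaffold of the beta-catenin destruction complex and a common readout of the pathway, was at 61.8, 99.6 and 83.2 CPM in controls and 39.1, 52.2 and 55.0 in MCT lungs (log2 fold change -0.74, SE 0.20, adjusted p = 0.0416). Sp5, a transcription factor induced by Wnt, fell from 9.45, 16.5 and 17.5 CPM to 3.87, 5.10 and 6.65 CPM (log2 fold change -1.48, SE 0.30, adjusted p = 0.0162). Neither gene's groups overlapped. Axin2 missed the threshold on dropping any MCT lung, or controls 2 or 3 (adjusted p = 0.0541 to 0.139), and on the FPKM scales (adjusted p = 0.0573 and 0.0577). Sp5 missed it at -1.37 with control 2 dropped (adjusted p = 0.0652) and at -1.31 with control 3 dropped (adjusted p = 0.0707). Ccnd1, the gene of cyclin D1, which many growth signals also induce, rose from 205, 203 and 196 CPM to 310, 431 and 367 CPM (log2 fold change 0.87, SE 0.14, adjusted p = 0.0081). Apcdd1 and Wif1, given above, are the other members of this list that rose and fell.

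In the planar cell polarity and calcium branch 2 of 21 tested genes fell, 19 did not pass, and the median was -0.29. Over all tested genes 13.1% were called and 5.11% fell. Prickle1, a core polarity protein, fell from 43.1, 60.0 and 57.6 CPM to 17.7, 28.3 and 25.8 CPM (log2 fold change -1.16, SE 0.20, adjusted p = 0.01), with no overlap. Daam2, a formin that binds Dishevelled, fell by 0.94 (adjusted p = 0.0349), a call lost without any 1 of the 6 libraries (adjusted p = 0.0551 to 0.119). Camk2d, a calcium-dependent kinase and the most abundant of the list, had -0.25 (adjusted p = 0.148).

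**Figure D5:**
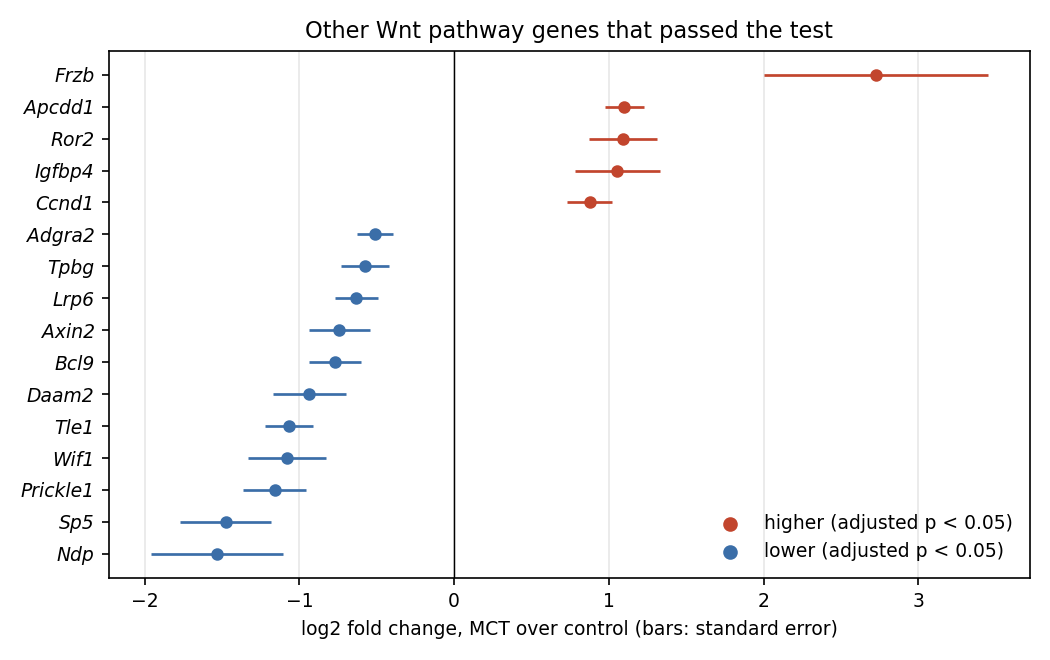
Log2 fold change, MCT over control, with its standard error, of the 16 further Wnt pathway genes that passed the edgeR test. The 5 that rose lie between 0.87 and 2.73, Frzb with the widest error, and the 11 that fell between -1.53 and -0.51.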

How the data were processed

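The authors deposited estimated counts and FPKM values per gene for 3 control and 3 MCT libraries. Bowtie2, TopHat2 2.0.3.12 and the build Rnor_6.0 come from the submitters' processing notes. The counting tool, annotation, strand setting and handling of multi-mapping reads: not given in the sources used here. Among the deposited estimated counts above 0, 90.7% to 91.5% per library were whole, with a fractional part of exactly 0; all were rounded for the tests. FPKM values, deposited by the authors, served to compare levels between genes.

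Groups and replicate numbers came from sample titles, and columns were matched to titles. The main test was edgeR 4.0.16 (R 4.3.3) quasi-likelihood with TMM scaling and filterByExpr (minimum count 10, minimum total 15), fitted on all 6 libraries and the whole table; the tests had been planned for raw counts. Log2 fold changes carry edgeR's small prior count, and an SE is the size of the log2 fold change over the root of F. The script was tested on simulated data. The labels do not tie each sample to its own animal; p-values therefore reflect only how these 6 libraries vary, part of which may be technical. Libraries of the same group differed beyond counting noise (chi-square per degree of freedom 23.2 to 52.6).

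Each symbol of the members had 1 row. Members, gene lists and the naming rule were chosen with earlier results of these data known. Per-sample values are given for tested members that were called, or had a mean of at least 1 FPKM or a log2 fold change of at least 1; in each further list the called genes, up to 5, and the most abundant one are named. Alternatives were DESeq2 1.42.0, limma-voom (limma 3.58.1), median-of-ratios scaling, no filter and a minimum count of 30. Others were limma on log2(FPKM + 0.1) and log2(FPKM + 1), the replicate block, and each library left out. The last of the 15, which was not planned, summed the Fzd8 copies. For other genes it nearly repeated the main test. Exact permutation tests used scipy 1.17.1. Intervals and floors based on counts cover counting error only, since the libraries carry no molecular identifiers.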

Additional observations from a re-analysis of the deposited data

How the results depend on the processing

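Dkk3, Fzd4, Fzd8 and Rspo1 kept their direction and their call in all 15 alternatives run. Of the members, 2 were higher and 5 lower in the main test. There was 1 higher with limma-voom, with a minimum count of 30 (where Wnt9b was not tested) and on both FPKM scales, and with a library left out the counts were 1 to 3 higher and 3 to 5 lower. Wnt5b and Wnt9b lost their calls with limma-voom (adjusted p = 0.0561 and 0.0634), and Wnt9b also on the FPKM scales with 0.1 or 1 added (adjusted p = 0.061 and 0.107). The log2 fold change of Wnt2b was -0.90 on log2(FPKM + 1), where a large added value shrinks low genes. DESeq2 and the replicate block called Wnt11 as an additional lower member.

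Of the further pathway genes, 5 were higher and 11 lower in the main test. On both FPKM scales 3 were higher, and with a library left out 2 to 6 were higher and 2 to 8 lower. With the replicate block 7 were lower, and Tpbg, Ndp, Adgra2, Daam2 and Igfbp4 lost their calls (adjusted p = 0.0626 to 0.106). Same-numbered samples did not deviate together (correlations of -0.0583, -0.0695 and -0.00241), and differently numbered ones had -0.0755 to 0.126. These correlations cannot decide whether the numbers pair the samples, so the replicate block is only an alternative.

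Signs turned only for uncalled members near 0. Wnt3a stood at -0.00147 and -0.000562 on the FPKM scales. With a library left out, the log2 fold changes ran from -0.037 to 0.23 for Fzd1, -0.14 to 0.092 for Fzd2, -0.16 to 0.26 for Fzd5, -0.19 to 0.036 for Fzd6, -0.31 to 0.16 for Rspo2, -0.17 to 0.13 for Wnt3a, -0.27 to 0.15 for Wnt7a and -0.018 to 0.53 for Wnt7b. The cause was not tested. Over all genes, 1221 were higher and 779 lower in the main test, 1182 lower with DESeq2, and, with control 2 dropped, 562 higher and 273 lower. Dropping control 3 left 481 higher and 212 lower, dropping MCT lung 1 left 712 higher and 343 lower, and dropping MCT lung 3 left 735 higher and 324 lower. Counts under about 10 per library limit Wnt2b, Wnt9b, Lgr5 and Ndp.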
